A study of Komagataella phaffii GS115 with 3 samples.

Results

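The genes described here stood lower after hydrogen peroxide and higher in an hmt-deficient strain, each against the same untreated culture of the yeast Komagataella phaffii. They were chosen from the measured values themselves. A gene was taken when it reached 10 FPKM (fragments per kilobase of gene, normalised for library depth) in at least 1 library, had a log2 ratio of H2O2-treated to untreated of -1 or less, and had a log2 ratio of hmt-deficient to untreated of 1 or more, both computed on FPKM plus a pseudocount of 1. Of 5040 genes, 4998 reached the minimum and 43 met the rule. PAS_chr3_0932, the one among them with the widest span, was left out by the rule, which leaves 42 genes. It stood at 1731 FPKM untreated, 11.4 with peroxide and 10054 in the hmt-deficient strain.

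The series holds 3 RNA-seq libraries, 1 per group: GS115 in regular culture without treatment, GS115 treated with H2O2, and a GS115 strain deficient in hmt in regular culture. GS115, a histidine auxotroph used as a laboratory and expression host, is the background of all of them. The labels do not say which gene hmt is, how the strain was made, how many clones were used, or the dose and duration of the peroxide treatment. Each condition thus has a single measurement without a replicate, so no p-value, standard error or SD is given. The ratios used by the rule describe how the genes were chosen, and both share the untreated library.

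K. phaffii can grow on methanol. Its alcohol oxidase oxidises methanol inside peroxisomes to formaldehyde and hydrogen peroxide, and catalase breaks the peroxide down, so this yeast meets H2O2 both as a product of its own metabolism and as an outside oxidant. Peroxide oxidises protein thiols, and yeasts answer it with antioxidant genes while lowering many transcripts tied to growth. The gene table used here repeats each locus tag in place of a symbol and names no product, so the 42 genes appear by locus tag and no role is given for any of them.

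Fitting each library's scaling total so that FPKM times coding length gave whole fragments returned 15358146 fragments for untreated GS115, 22355439 for the treated culture and 18281718 for the hmt-deficient strain. A gene of median length at 10 FPKM had 184 to 268 fragments, depending on the library. The least covered value among the 42 genes was 18 fragments after H2O2, against 90 or more untreated and 280 or more in the hmt-deficient strain. Intervals below are exact 95% intervals from these fragments and cover counting error only, not variation between cultures.

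Across the 42 genes the median level was 56.7 FPKM untreated, 22.5 with peroxide and 156 in the hmt-deficient strain. Over all 4998 genes the corresponding medians were 70.6, 51.6 and 68.9 FPKM. Levels were spread widely, from 6.12 to 3491 FPKM untreated, from 0.85 to 976 after H2O2 and from 14.6 to 14333 in the hmt-deficient strain. The median rank in a library (1 is the highest of 5040 genes) was 2966.5 untreated, 3928 with peroxide and 1159.5 in the hmt-deficient strain. Among the 500 highest of the 5040 genes of each library, the set had 3 untreated, 2 with peroxide and 13 in the hmt-deficient strain. As the choice of genes bears on these levels and ranks, nothing is read from their order across libraries.

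**Figure D1:**
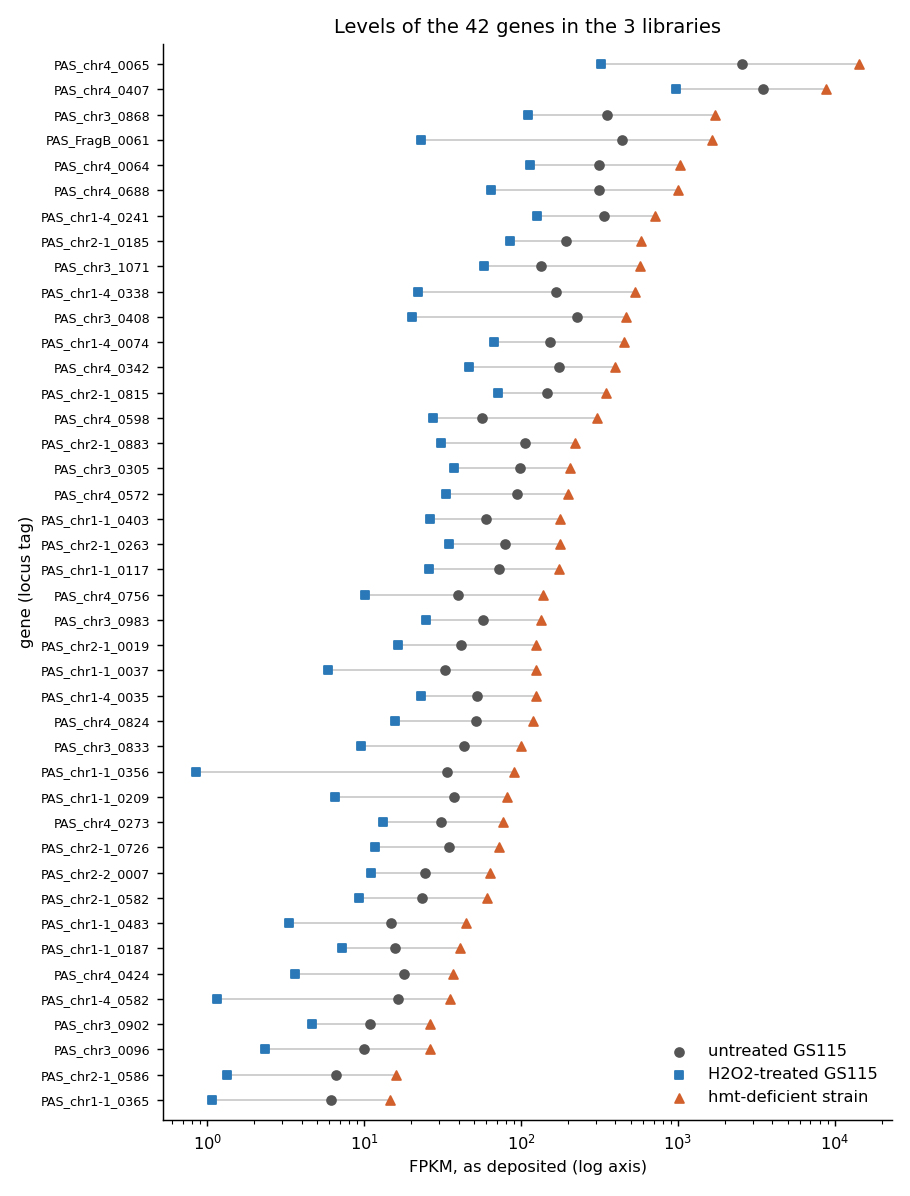
FPKM of each of the 42 genes (rows, ordered by level in the hmt-deficient strain) in the untreated (circles), H2O2-treated (squares) and hmt-deficient (triangles) library, on a log axis, 1 library per group. The grey line joins the lowest and highest value of a gene; the widest spans are those of PAS_chr1-1_0356 (0.85 to 90.5 FPKM) and PAS_FragB_0061 (23.2 to 1654 FPKM).

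The log2 ratio of H2O2-treated to untreated ran from -1.01 to -4.24 with a median of -1.57, beside -0.38 over all tested genes. In the hmt-deficient strain the log2 ratio to untreated ran from 1.01 to 2.47 with a median of 1.30, beside -0.07 over all. For 26 genes the H2O2 difference was the larger one, and for 16 the hmt-deficient difference was. This tally turns with the scaling: with each ratio centred on the median of all tested genes, the H2O2 difference was the larger in 16 and the hmt-deficient one in 26, with set medians of -1.18 and 1.37. A 4-fold difference or more was seen in 11 of the 42 genes after H2O2 and in 4 in the hmt-deficient strain. Of the 42, only PAS_chr4_0065 passed 4-fold in both directions. For reference, 25.8% of all tested genes were 2-fold or more lower after H2O2 and 6.84% were 4-fold or more lower, while 11.1% were 2-fold and 3.32% 4-fold or more higher in the hmt-deficient strain. Both parts of the rule together were met by 0.860% of tested genes. Since the rule used these ratios, nothing is read from the set's counts against those shares.

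**Figure D2:**
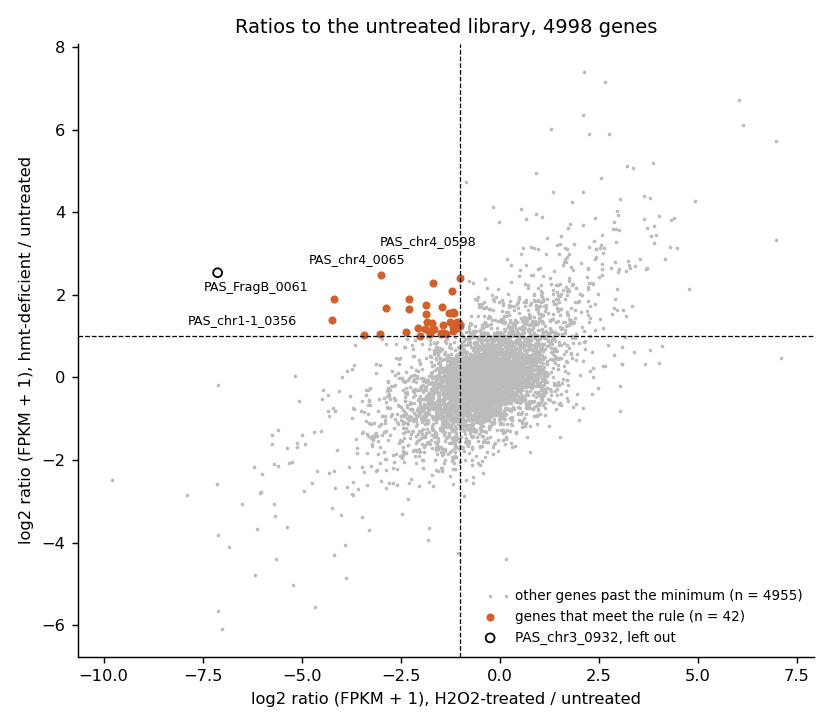
Log2 ratio of FPKM plus 1 to the untreated library, after H2O2 (horizontal) and in the hmt-deficient strain (vertical), 1 point per gene. Dashed lines mark the thresholds of -1 and 1; the 42 chosen genes fill the upper left corner, with PAS_chr3_0932 (open circle) far to their left at -7.12, beside 4955 other genes past the minimum.

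Direct comparison of the hmt-deficient strain with the H2O2-treated culture leaves the untreated library aside, although strain and treatment then differ together. The ratio of FPKM ran from 4.87 for PAS_chr2-1_0815 to 106 for PAS_chr1-1_0356, with a median of 8.79. By the choice of members each gene had to be about 4-fold or more higher in the hmt-deficient strain here, which 5.52% of tested genes were. At 8-fold or more higher on the log2 scale of FPKM plus 1 stood 20 of the 42, beside 1.80% of tested genes. Of the 276 tested genes that were 4-fold or more higher in the hmt-deficient strain, 90 were 8-fold or more higher. Genes lower there than after H2O2 are not in these counts. As the choice of members bears on this ratio, nothing is read from these counts.

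A pair of abundant transcripts carried the larger part of the set's summed level. The 42 genes together took 1.00% of all FPKM in untreated GS115, 0.234% with peroxide and 3.81% in the hmt-deficient strain. PAS_chr4_0065 and PAS_chr4_0407 alone made up 0.596%, 0.122% and 2.47% in that order. Without this pair the other 40 genes took 0.405%, 0.113% and 1.34%, an order of libraries that the choice of genes fixes.

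**Figure D3:**
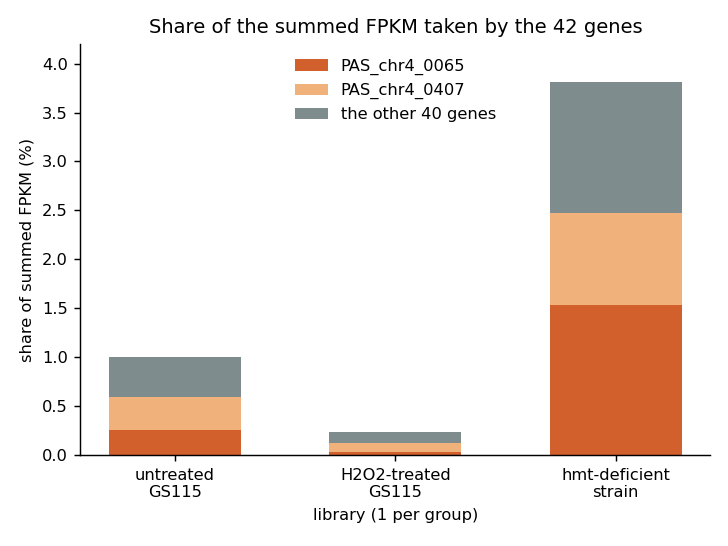
Share of the summed FPKM (percent, vertical) taken by the 42 genes in each of the 3 libraries, split into PAS_chr4_0065, PAS_chr4_0407 and the other 40 genes. The bars reach 1.00%, 0.234% and 3.81%.

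PAS_chr4_0065, on chromosome 4, was the most abundant transcript of the whole hmt-deficient library. It stood at 2579.9 FPKM untreated, 325 with peroxide and 14333 in the hmt-deficient strain, which put it at rank 46, 490 and 1. The untreated level was 7.93-fold above the H2O2-treated one (7.74 to 8.13), and the hmt-deficient level 5.56-fold above the untreated one (5.50 to 5.61). PAS_chr4_0407, a short gene of 312 bp, was the next most abundant, with 3491 FPKM untreated, 976 with peroxide and 8791 in the hmt-deficient strain, at rank 23, 193 and 4. Its differences were smaller, at 3.58-fold (3.48 to 3.68) and 2.52-fold (2.47 to 2.56).

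Among the 5 highest members were 3 further genes, at rank 440 to 584 of 5040 untreated, that passed 1000 FPKM in the hmt-deficient strain. PAS_chr3_0868 stood at 353 FPKM untreated, 110.1 with peroxide and 1735 in the hmt-deficient strain. Its hmt-deficient level was 4.92-fold above untreated (4.78 to 5.06), larger than its 3.20-fold difference after H2O2 (3.06 to 3.36). PAS_FragB_0061, on chromosome 1, had the reverse balance: 439 FPKM untreated, 23.2 with peroxide and 1654 in the hmt-deficient strain. It was 18.9-fold lower after H2O2 (17.7 to 20.3) and 3.77-fold above untreated in the hmt-deficient strain (3.70 to 3.85), so the 2 altered libraries differed 71.4-fold (66.8 to 76.4). PAS_chr4_0064 stood at 314 FPKM untreated, 114 with peroxide and 1028 in the hmt-deficient strain.

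The largest difference after H2O2 was that of PAS_chr1-1_0356, at 33.9 FPKM untreated, 0.85 with peroxide and 90.5 in the hmt-deficient strain. It was 39.9-fold lower after H2O2 (24.9 to 67.6), a value that rests on 18 fragments in the treated library, and 2.67-fold above untreated in the hmt-deficient strain (2.41 to 2.96). PAS_chr3_0408 was 11.2-fold lower after H2O2 (10.2 to 12.4), at 227 against 20.2 FPKM, yet only just met the hmt part of the rule at 467 FPKM. PAS_chr1-4_0582 was 14.3-fold lower (9.94 to 21.3), at 16.5 FPKM untreated and 1.15 after H2O2 (32 fragments), and stood at 35.3 FPKM in the hmt-deficient strain. Together with PAS_FragB_0061 these were the 4 genes with a log2 ratio below -3 after H2O2.

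Between 4-fold and 8-fold lower after H2O2 on the log2 scale were PAS_chr4_0065 and 6 others. PAS_chr1-4_0338 stood at 167 FPKM untreated, 22.0 with peroxide and 534 in the hmt-deficient strain, which is 7.56-fold lower (7.01 to 8.15) and 3.21-fold higher (3.10 to 3.32). PAS_chr1-1_0037 stood at 32.6, 5.85 and 125 FPKM in the same order of libraries. PAS_chr4_0688 stood at 316, 64.1 and 1004 FPKM. These 3 genes were also 3-fold or more above untreated in the hmt-deficient strain. The others differed less there: PAS_chr1-1_0209 stood at 37.4, 6.48 and 81.3 FPKM, PAS_chr3_0833 at 43.3, 9.57 and 100.2 FPKM, and PAS_chr4_0424 at 17.9, 3.65 and 36.9 FPKM.

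Levels 4-fold or more above untreated in the hmt-deficient strain were seen in PAS_chr4_0065, PAS_chr4_0598, PAS_chr3_0868 and PAS_chr3_1071. PAS_chr4_0598 stood at 56.2 FPKM untreated, 27.4 with peroxide and 304 in the hmt-deficient strain. This was 5.41-fold above untreated (5.12 to 5.72), while its H2O2 difference of 2.05-fold (1.90 to 2.22) was the second smallest of the set. PAS_chr3_1071 stood at 134 FPKM untreated, 57.9 with peroxide and 574 in the hmt-deficient strain, a 4.30-fold difference from untreated (4.06 to 4.56). For these genes, apart from PAS_chr4_0065, the hmt-deficient difference exceeded the H2O2 difference.

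After H2O2, 8 of the 42 genes stood under 5 FPKM. Besides PAS_chr1-1_0356, PAS_chr1-4_0582 and PAS_chr4_0424, described above, these were 5 genes under 15 FPKM in the untreated culture. PAS_chr1-1_0365 stood at 6.12 FPKM untreated, 1.08 with peroxide and 14.6 in the hmt-deficient strain. PAS_chr2-1_0586 stood at 6.67, 1.33 and 16.0 FPKM, and PAS_chr3_0096 at 9.95, 2.33 and 26.4 FPKM. None of these 3 reached 10 FPKM untreated, and they entered the set through their hmt-deficient level. PAS_chr1-1_0483 stood at 14.8, 3.34 and 44.4 FPKM, and PAS_chr3_0902 at 11.0, 4.68 and 26.5 FPKM. The pseudocount understates the ratios of such low genes: PAS_chr1-1_0365 was 5.67-fold lower after H2O2 (3.83 to 8.55) by FPKM, against a log2 ratio of -1.78 with the pseudocount.

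The rest of the set lay between these extremes. It held 12 genes that were neither among the 5 highest, nor 4-fold apart in either comparison, nor under 5 FPKM after H2O2, nor particularly long or short. They stood at 30.8 to 193 FPKM untreated and were 2.03-fold to 3.89-fold lower after H2O2 and 2.09-fold to 3.46-fold higher in the hmt-deficient strain. The widest span of these was that of PAS_chr4_0756, at 39.6 FPKM untreated, 10.2 with peroxide and 137 in the hmt-deficient strain. The narrowest was that of PAS_chr2-1_0815, at 146, 71.7 and 349 FPKM. PAS_chr2-1_0185, PAS_chr1-4_0074 and PAS_chr1-1_0403 each stood close to 3-fold above untreated in the hmt-deficient strain (3.01, 2.96 and 2.97) and between 2.25-fold and 2.28-fold below it after H2O2. The counting intervals of these 3 genes overlapped in both comparisons. PAS_chr4_0824, PAS_chr4_0273, PAS_chr3_0983, PAS_chr1-4_0035, PAS_chr4_0572, PAS_chr3_0305 and PAS_chr2-1_0726 made up the rest, with hmt-deficient levels from 72.3 to 206 FPKM.

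Some genes lay within counting error of the thresholds. By FPKM ratio, the 95% counting interval lay wholly beyond 2-fold in both comparisons for 29 of the 42 genes. For 5 genes the H2O2 interval reached 2-fold or less, and for 8 the hmt-deficient interval did. The 3 genes nearest inside the H2O2 threshold were PAS_chr4_0598, PAS_chr2-1_0815 (both -1.01) and PAS_chr1-1_0187 (-1.02). Nearest outside it were PAS_chr4_0411 (-0.98), PAS_chr1-4_0015 (-0.98) and PAS_chr4_0733 (-0.98). On the hmt side PAS_chr4_0424 (1.01), PAS_chr3_0408 (1.04) and PAS_chr2-1_0726 (1.04) lay just inside, and PAS_chr2-2_0345 (0.99), PAS_chr4_0472 (0.97) and PAS_chr4_0978 (0.93) just outside. No gene failed on the 10 FPKM minimum alone.

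Scaling matters because the median log2 ratio of H2O2-treated to untreated was -0.38 over all tested genes. The summed FPKM was not lower, at 1070995 after H2O2 against 1018729 untreated. After centring each ratio on the median of all tested genes, 26 of the 42 genes still met the rule, and the other 16 missed the H2O2 part. The rule was met under all 4 scalings tried by 26 genes, among them PAS_chr4_0065, PAS_FragB_0061, PAS_chr1-1_0356, PAS_chr4_0407, PAS_chr1-4_0338 and PAS_chr3_0868.

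Coding length was not used by the rule. The 42 genes had a median coding length of 1362 bp, against 1200 bp over all tested genes, and ran from 195 to 14853 bp. PAS_chr1-1_0187, at 14853 bp, has the greatest length of all 5040 genes, and stood at 15.7 FPKM untreated, 7.23 with peroxide and 40.7 in the hmt-deficient strain. Genes of 3000 bp or more made up 7 of the 42 (16.7%) and 6.88% of all tested genes. This group was PAS_chr1-1_0187 with PAS_chr2-1_0263, PAS_chr1-1_0483, PAS_chr2-1_0582, PAS_chr1-1_0117, PAS_chr2-1_0586 and PAS_chr4_0342. Most abundant of them was PAS_chr4_0342, at 175 FPKM untreated, 46.3 with peroxide and 396 in the hmt-deficient strain. PAS_chr2-1_0263 stood at 79.6, 34.5 and 176 FPKM, PAS_chr1-1_0117 at 72.4, 26.0 and 175 FPKM, and PAS_chr2-1_0582 at 23.4, 9.22 and 60.5 FPKM. In 5 equal bins of coding length, from short to long, the set held 6, 10, 7, 7 and 12 genes, or 0.600% of the shortest and 1.20% of the longest bin.

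At the short end, 8 of the 42 genes (19.0%) were 750 bp or less, and 23.8% of all tested genes were. PAS_chr2-1_0019, at 195 bp, stood at 41.7 FPKM untreated, 16.5 with peroxide and 125 in the hmt-deficient strain. PAS_chr2-2_0007, at 240 bp, stood at 24.4, 11.0 and 63.8 FPKM. Few fragments lie behind these short genes: PAS_chr2-2_0007 had 59 after H2O2, and its 2.22-fold difference there has an interval of 1.58 to 3.14. PAS_chr1-4_0241, at 705 bp, was far better covered, at 338, 127 and 714 FPKM, and PAS_chr2-1_0883, at 711 bp, stood at 107, 30.9 and 221 FPKM.

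The length make-up can be set beside that of the most similar sets. Of 882 genes that were 2-fold or more lower after H2O2 but within 2-fold of untreated in the hmt-deficient strain, 10.5% were 3000 bp or longer, with a median length of 1426.5 bp. Of 268 genes higher in the hmt-deficient strain but within 2-fold after H2O2, 9.33% were that long. Genes lower in both (362) and higher in both (243) included few, at 1.10% and 1.23%. The share of 16.7% among the 42 genes lies above these, but it rests on 7 genes, and whether it differs was not tested.

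On the chromosomes the 42 genes were scattered. Chromosome 1 held 14 (33.3%, where 30.4% of tested genes lie) and chromosome 2 held 9 (21.4%, beside 26.5%). Chromosome 3 held 8 (19.0%, beside 23.8%) and chromosome 4 held 11 (26.2%, beside 19.3%). Within 20 genes of a chromosome end lay 3 of them (7.14%, beside 3.10% of tested genes): PAS_chr2-2_0007, the fifth from its end, PAS_FragB_0061 and PAS_chr2-1_0019. Similar shares were found among genes higher in the hmt-deficient strain but within 2-fold after H2O2 (6.72%) and among genes higher in both (9.05%). A single pair of chromosome neighbours was found among the 42, PAS_chr4_0064 and PAS_chr4_0065. The genes on either side of that pair were within 2-fold of untreated in both other libraries. PAS_chr4_0063 stood at 168 FPKM untreated, 154 with peroxide and 163 in the hmt-deficient strain, and PAS_chr4_0066 at 309, 316 and 239.9 FPKM. The pair shared direction, not size, since PAS_chr4_0064 differed 2.76-fold after H2O2 (2.61 to 2.91) and 3.27-fold in the hmt-deficient strain (3.16 to 3.39), less than PAS_chr4_0065 in both.

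Genes directly beside the 42 were then examined. The 42 were not chosen by these genes' values, but leaving members out of the neighbours removes any neighbour that met the rule. With members kept, 24.7% of 81 neighbours were 2-fold or more lower after H2O2. Of 79 such neighbours past the minimum that are not in the set, 18 (22.8%) were 2-fold or more lower after H2O2, near the 25.8% of all tested genes, and 11 (13.9%) were 2-fold or more higher, beside 8.96%. In the hmt-deficient strain 23 (29.1%) were 2-fold or more higher, beside 11.1% of all tested genes, and 7 (8.86%) were 2-fold or more lower, beside 11.0%. The median log2 ratio of the neighbours was -0.34 with peroxide and 0.32 in the hmt-deficient strain. At least 1 such higher neighbour lay beside 20 of the 42 genes. The like share over all tested genes was not computed, so nothing is read from this count. A raised share was also found beside other genes that were higher in the hmt-deficient strain. Counting all tested neighbours, set members included, 30.9% of 81 were higher beside the 42 genes, 19.9% of 512 beside genes higher in the hmt-deficient strain alone, and 23.2% of 453 beside genes higher in both conditions. Beside the 882 genes that were lower after H2O2 and within 2-fold in the hmt-deficient strain the share was 9.76%. The libraries were stranded, but the labels do not say whether strand was used in counting. Whether any of the 42 genes overlaps a neighbour, and whether shared reads bear on these shares, was not tested.

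**Figure D4:**
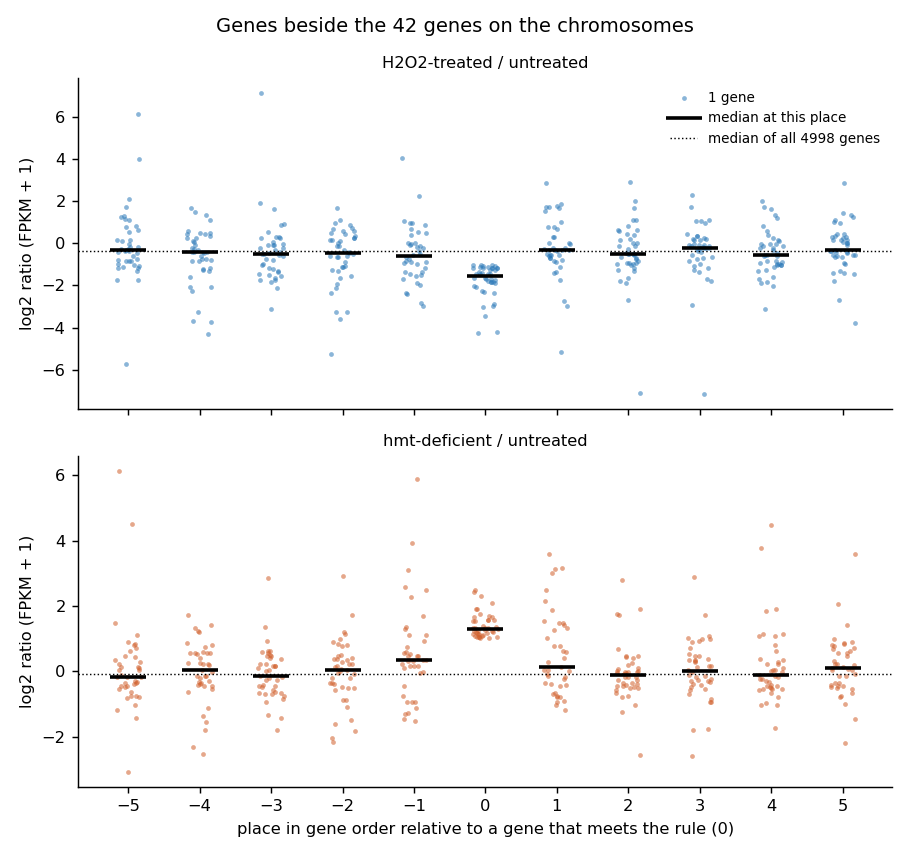
Log2 ratio of FPKM plus 1 to untreated for genes up to 5 places before or after each of the 42 genes in gene order (horizontal), after H2O2 (upper panel) and in the hmt-deficient strain (lower panel). Points are genes past the minimum, bars are medians at a place and the dotted line is the median of all 4998 genes. In the lower panel the bar stands at 0.36 at 1 place before and 0.15 at 1 place after, above the -0.07 of all genes. Bars farther out run from -0.17 (5 places before) to 0.11 (5 places after), so the bar at 1 place after hardly stands apart.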

How the data were processed

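RNA was depleted of ribosomal RNA and made into stranded paired-end libraries, per the labels' protocols. HISAT2, featureCounts, HTSeq, Trimmomatic 0.39 and FastQC 0.12.1 are listed in the submitters' processing notes, without roles. The sources used here do not give the build or annotation. The authors deposited FPKM per gene. A further column headed as normalized equals FPKM for the H2O2-treated library, is FPKM times 1.14 for the hmt-deficient one, and served as an alternative. All 5040 identifiers matched the RefSeq table of assembly ASM2700v1, used only for coding length and gene order.

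The 42 genes, comparisons and lists were chosen with earlier results of these data known. Lists by product name could not be applied, since the gene table names no product. A rule picked 19 of the 42 for the check of single genes under other settings. These were the 12 with the largest smaller change, the 5 highest, the 3 nearest each threshold, adjacent genes and genes at chromosome ends. The other 23 are described by locus tag but were not part of that check. Fragments were recovered by fitting each total; 94.5% to 96.8% of checkable values came within 0.1 of a whole number. Ratio intervals are exact (Clopper-Pearson, SciPy 1.17.1) and cover counting error only. The recovery and the rule were run on simulated data with planted 4-fold differences and counting error only. That run checks the code. It does not bear on genes near the thresholds or on variation between cultures.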

Additional observations from a re-analysis of the deposited data

How the results depend on the processing

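With 1 library per group, nothing here can separate culture from condition. No paired analysis was possible because each group has a single library. Centring each log2 ratio on the median of all genes, which shifts the H2O2 ratios up by 0.38, left 27 genes meeting the rule (26 of the 42 and 1 other), 747 genes lower after H2O2 and 699 higher in the hmt-deficient strain than after H2O2, with a set median of -1.18 after H2O2. A 1.5-fold threshold gave 151 genes meeting the rule, 2057 lower after H2O2, 999 higher in the hmt-deficient strain and 1980 higher there than after H2O2; a 4-fold threshold gave 1, 342, 166 and 276. A pseudocount of 5 FPKM gave set medians of -1.30 and 1.20 and kept 30 of the 42. The hmt-deficient median was 1.42 after rescaling to TPM, 1.40 scaled without the 20 highest genes of any library, and 1.49 with the authors' normalized column, which has no counterpart for the untreated library. These scalings moved the median of all genes by 0.12, 0.10 and 0.19. The numbers meeting the rule were then 55, 45 and 58. Of 228 values of the 19 single genes picked for this check, 138 stayed within the half-width of their counting interval and 90 moved. Under the 4 scalings, an alternative chosen after seeing the data, 23 or 24 of the 79 neighbouring genes were higher in the hmt-deficient strain (29.1% or 30.4%), beside 12.4% to 14.8% of all tested genes.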

Other observations

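Some of the genes directly beside the 42 differed from untreated far more than the 42 did in the hmt-deficient strain; they were picked out after their values were seen. PAS_chr3_0095, next to PAS_chr3_0096, stood at 8.72 FPKM untreated, 45.4 with peroxide and 575 in the hmt-deficient strain. PAS_chr3_0982, next to PAS_chr3_0983, stood at 35.8, 599 and 554 FPKM in the same order. PAS_chr2-1_0587, next to PAS_chr2-1_0586, was scarce untreated at 1.45 FPKM and stood at 16.9 and 28.5 FPKM. Of the 23 neighbours that were 2-fold or more higher in the hmt-deficient strain, 15 (65.2%) had a log2 ratio above 0 after H2O2 and 9 (39.1%) were 2-fold or more higher there. Among all 511 genes higher in the hmt-deficient strain and outside the rule, these shares were 81.6% and 47.6%. That 0 of the 23 were 2-fold or more lower after H2O2 follows from the rule, which would have taken them into the set.

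PAS_chr2-1_0019 lay between 2 such genes. PAS_chr2-1_0018 stood at 64.1 FPKM untreated, 92.3 with peroxide and 392 in the hmt-deficient strain, and PAS_chr2-1_0020 at 47.4, 46.1 and 213 FPKM. PAS_chr2-2_0007 was likewise flanked by PAS_chr2-2_0009 (3.66, 1.94 and 21.7 FPKM) and PAS_chr2-2_0006 (28.9, 16.4 and 59.1 FPKM). Both members lie within 20 genes of an end of chromosome 2.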
